A study of Mus musculus with 9 samples.

Results

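The subunits of the oxidative phosphorylation machinery were followed at the RNA level in 9 testis samples of male mice, 3 for each of the genotypes WT, Kpna6 ΔIBB/ΔIBB and Kpna6-/-. The whole organ was used, and all mice were 15 weeks old and on the C57Bl6/N background. Members were the protein-coding genes whose symbols follow the naming of the subunits (mt-Nd, mt-Co, mt-Atp and mt-Cytb, Nduf, Sdh, Uqcr, Cox4 to Cox8 and Atp5). This gave 98 of 32035 annotated genes. Of these, 13 are mitochondrially encoded, 82 are nuclear, and 3 are forms of cytochrome c oxidase subunits known for the testis (Cox6b2, Cox7b2 and Cox8c). Kpna6 encodes importin α7, an adaptor that carries proteins into the nucleus. In the Kpna6 ΔIBB/ΔIBB line exon 2 is deleted, and the testes make a shortened protein without the domain that binds importin β. In the Kpna6-/- line a gene trap sits in intron 1. According to the study, germ cells of this line still make the protein from a testis exon, while it is missing in Sertoli cells.

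Oxidative phosphorylation makes ATP at the inner mitochondrial membrane. Complexes I and II pass electrons from NADH and succinate to ubiquinone, complex III passes them to cytochrome c, complex IV hands them to oxygen, and complex V, the ATP synthase, uses the resulting proton gradient. The mitochondrial DNA encodes core membrane subunits of complexes I, III, IV and V, while complex II and the other subunits are encoded in the nucleus. In developing sperm the mitochondria are remodelled and end in a sheath around the midpiece, and several mitochondrial proteins are made there from genes that somatic cells use little.

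The libraries held 2.49e+07 to 3.15e+07 estimated counts on genes. Kpna6 itself, in CPM (counts set to the same total in each library after scaling by the trimmed mean of M-values, TMM), was 201, 325 and 334 in WT testes, between 81.2 and 85.3 in Kpna6 ΔIBB/ΔIBB testes, and between 247 and 262 in Kpna6-/- testes. It fell in Kpna6 ΔIBB/ΔIBB (log2 fold change -1.79 ± 0.15 SE, adjusted P-value of 1.94e-05 in the edgeR quasi-likelihood test), while its level in Kpna6-/- did not pass the test (-0.18 ± 0.14, adjusted P = 0.586). All 10 markers of elongating spermatids and all 10 of round spermatids were called lower in Kpna6 ΔIBB/ΔIBB against WT, with medians of -0.37 and -0.38 (log2), and all 12 Sertoli cell markers were called higher, with a median of 0.68. Of all 18797 genes tested in this comparison, 17.7% were called higher and 18.9% lower. None of these markers was at 0 in every library, and the summed level of the Sertoli cell markers was 1063 to 1174 TPM (transcript levels per length, scaled to a common total) in WT, 1823 to 2119 in Kpna6 ΔIBB/ΔIBB and 1305 to 1392 in Kpna6-/-. In Kpna6-/- against WT, none of the spermatid markers was called and 5 of the 12 Sertoli cell markers were called higher, against 0.889% of all genes called higher and 0.712% lower. The study itself counted fewer Sertoli cells and fewer round spermatids per tubule in adults of both lines. Its real-time PCR of whole testis showed no significant change of Rhox5, Wt1, clusterin and Cldn11, which are among the 12 Sertoli cell markers. In sorted round spermatids of Kpna6 ΔIBB/ΔIBB it found less Tnp1, Tnp2, Prm1 and Prm2 mRNA. From whole-testis RNA alone, fewer cells of a type and less RNA per cell cannot be told apart, and the part of such shifts in the results below was not tested.

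Transcripts of the subunits were abundant in every library. In TPM, a value per length that lets genes be compared, the 13 mitochondrially encoded genes summed to 24444, 24720 and 23271 in WT testes, 28286, 26212 and 25393 in Kpna6 ΔIBB/ΔIBB testes, and 22382, 25495 and 21397 in Kpna6-/- testes. All 3 Kpna6 ΔIBB/ΔIBB sums lay above the 3 WT sums, but one of the Kpna6-/- sums reached into the Kpna6 ΔIBB/ΔIBB range. The 82 nuclear genes summed to 16875 to 17443 TPM in WT, 17507 to 18308 in Kpna6 ΔIBB/ΔIBB and 16958 to 17532 in Kpna6-/-. The 3 testis-specific forms summed to 2757 to 2910, 2895 to 3022 and 2784 to 2996 TPM, ranges that overlap. Their contribution is large for so few genes, since Cox8c alone reached 1523 ± 34 TPM (SD, n = 3) in WT, above every nuclear subunit. TPM values share a fixed total, and the 10 elongating spermatid markers alone held 69970 to 80090 TPM in WT and 58260 to 66520 in Kpna6 ΔIBB/ΔIBB, so a sum can rise in TPM where others fall.

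Among the nuclear members, the highest WT means belonged to Atp5b, which encodes the catalytic β subunit of the ATP synthase, at 1181 ± 67 TPM, and to Uqcrq of complex III at 1150 ± 35 TPM. Of the Atp5b value only 29.5% came from transcripts annotated as protein-coding, the single member below 50%. Atp5mpl, a small subunit of the ATP synthase also known as MP68 or 6.8PL, followed at 1115 ± 103 TPM. The next in order were Atp5e, Cox6c, Cox7c, Cox4i1, Ndufa7, Cox7a2 and Cox6a1, from 770 ± 42 down to 437 ± 16 TPM. Cox7a2 (449 ± 26 TPM) and Cox6a1 did not differ beyond their spread. Over all nuclear members the median WT mean was 124 TPM, and 47 of 82 reached at least 100 TPM. Only 4 stayed under 10 TPM. These were Cox4i2, Cox6a2, Cox8b and a second annotated Atp5o gene. Cox6a2 and Cox8b are the forms of heart and skeletal muscle, and at most 15 and 2 estimated counts were found in any library. Together with the second Atp5o these did not pass the filter on low counts, so 95 of the 98 members were tested in each comparison.

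Among the mitochondrially encoded subunits, mt-Cytb had the largest rise in Kpna6 ΔIBB/ΔIBB against WT. It is the only complex III subunit that the mitochondrial DNA encodes. Its CPM was 942, 922 and 932 in WT, 1194, 1132 and 1154 in Kpna6 ΔIBB/ΔIBB, and 1035, 1035 and 991 in Kpna6-/- testes, so the 3 groups did not overlap. The log2 fold change in Kpna6 ΔIBB/ΔIBB was 0.32 ± 0.03 (adjusted P = 3.94e-05). It was called under all 16 alternative settings run for it, with values from 0.30 to 0.45.

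The complex I genes mt-Nd5, mt-Nd6 and mt-Nd4 rose as well. mt-Nd5 had 569, 608 and 584 CPM in WT and 744, 704 and 684 in Kpna6 ΔIBB/ΔIBB (0.28 ± 0.04, adjusted P = 0.000392). mt-Nd6 had 182, 173 and 167 CPM against 213, 201 and 190 (0.21 ± 0.05, adjusted P = 0.00784). mt-Nd4 had 955, 958 and 898 CPM against 1078, 1039 and 1038 (0.17 ± 0.04, adjusted P = 0.00328). In each of these genes every Kpna6 ΔIBB/ΔIBB library lay above every WT library. mt-Nd6 is the one subunit transcribed from the light strand, and it lies between mt-Nd5 and mt-Cytb on the opposite strand. The kit and the deposited values carry no stated strand, so reads of mt-Nd6 and of antisense RNA there cannot be told apart. mt-Nd4 and mt-Nd4l share one transcript and overlap, but mt-Nd4l, with 0.03 ± 0.04, did not pass the test. It passed with library size scaling (0.133, adjusted P = 0.0213) and with both limma fits (0.144).

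mt-Atp8 was the single mitochondrially encoded gene called lower in Kpna6 ΔIBB/ΔIBB. It had 27.3, 23.8 and 25.3 CPM in WT and 23.7, 21.4 and 20.0 in Kpna6 ΔIBB/ΔIBB (-0.23 ± 0.08, adjusted P = 0.0453). The call was close to the threshold and was lost in 9 of 16 alternatives, among them those without WT replicate 1 (-0.18), WT replicate 3 (-0.23), Kpna6 ΔIBB/ΔIBB replicate 2 (-0.22) and Kpna6 ΔIBB/ΔIBB replicate 3 (-0.17). Its neighbour mt-Atp6, which lies on the same transcript and overlaps it, had 1130, 1058 and 990 CPM in WT and 1204, 1164 and 1106 in Kpna6 ΔIBB/ΔIBB, groups that overlap (0.13 ± 0.05, adjusted P = 0.0513). It passed in 9 of 16 alternatives, namely DESeq2 (0.128, adjusted P = 0.0272), no filter (0.133), all 9 samples in 1 fit (0.128), the replicate block (0.134), library size scaling (0.23), both limma fits (0.259), and the fits without WT replicate 1 (0.178) or Kpna6 ΔIBB/ΔIBB replicate 3 (0.166).

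In all, 4 of the 13 mitochondrially encoded genes were called higher and 1 lower in Kpna6 ΔIBB/ΔIBB against WT. Of all 18797 genes tested, 17.7% were called higher and 18.9% lower. The median log2 fold change of the 13 genes was 0.03, against 0.009 over all genes. This count depends on the scaling. TMM sets the middle of all genes near 0, whereas scaling by library size alone puts the median of all genes at 0.11, and limma on log2(TPM + 1) puts it at 0.10. With each of these 8 of the 13 genes were called higher and none lower, with medians of 0.13 and 0.14, so mt-Cytb, mt-Nd5, mt-Nd6 and mt-Nd4 stood above the middle of all genes under each scaling. Of all 18797 genes, library size scaling called 5416 higher and 2326 lower, and limma on log2(TPM + 1) 3925 and 1622.

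**Figure D1:**
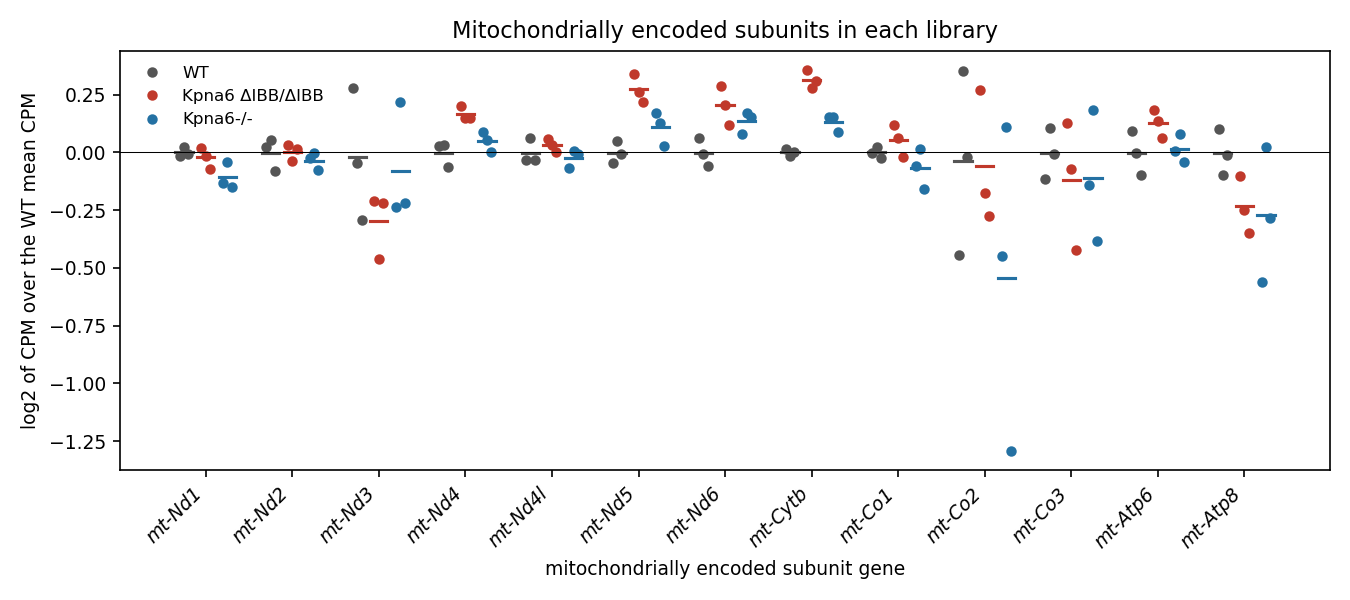
Each point is 1 library, plotted as the log2 ratio of its CPM to the WT mean CPM of the same gene, for the 13 mitochondrially encoded genes, and each short line is the mean of 3 libraries. For mt-Cytb the Kpna6 ΔIBB/ΔIBB points lie above the Kpna6-/- points and these above the WT points, while for mt-Co2 the points of each group spread widely.

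Several mitochondrially encoded genes are held more than once by the annotation, mt-Co2 above all. mt-Co2, with 323, 561 and 433 CPM in WT, 530, 388 and 363 in Kpna6 ΔIBB/ΔIBB and 322, 474 and 179 in Kpna6-/- testes, overlapped in every comparison. The predicted gene Gm28661 is identical to it over 681 bases, and such near-identical sequences held 78.6% of the counts of the sum. Taken with them, mt-Co2 had 5359, 5446 and 5267 TPM in WT, 6600, 6309 and 5987 in Kpna6 ΔIBB/ΔIBB, and 5198, 5635 and 5092 in Kpna6-/- testes. The spread shrank and Kpna6 ΔIBB/ΔIBB lay above both other groups. On the summed counts the log2 fold change in Kpna6 ΔIBB/ΔIBB against WT turned from -0.04 (adjusted P = 0.896) to 0.11 (adjusted P = 0.0465).

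The sums did not change the calls of the other mitochondrially encoded genes in this comparison. For mt-Co3, whose copies held 30.5% of the summed counts, the log2 fold change went from -0.10 to 0.07 without passing the test either way. For mt-Nd3, with 23.5% of the summed counts in copies, it went from -0.29 to -0.20, and the adjusted P-value stayed near the threshold (0.0762 and 0.077). Without WT replicate 3 mt-Nd3 was called lower (-0.416, adjusted P = 0.0125). The same held with no filter (-0.289, adjusted P = 0.0377) and with the replicate block (-0.275, adjusted P = 0.0464). mt-Co1, the catalytic subunit of complex IV and the highest of the 13 genes at 4014 ± 33 TPM in WT, had 13.8% of the summed counts in copies and changed from 0.06 to 0.05. In TPM its copies were about as high as the gene, at 4531, 3801 and 3222 beside 3976, 4035 and 4031 in WT. mt-Co1 passed without Kpna6 ΔIBB/ΔIBB replicate 3 (0.0965, adjusted P = 0.0483), with library size scaling (0.158, adjusted P = 0.00328) and with both limma fits (0.183). mt-Cytb, mt-Nd6, mt-Nd1 and mt-Atp8 had no such copy, and those of mt-Atp6, mt-Nd4, mt-Nd4l, mt-Nd5 and mt-Nd2 held at most 0.142% of the summed counts. All 13 genes with their copies summed to 32083 to 35625 TPM in WT, 36814 to 40048 in Kpna6 ΔIBB/ΔIBB and 31711 to 34957 in Kpna6-/-.

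**Figure D2:**
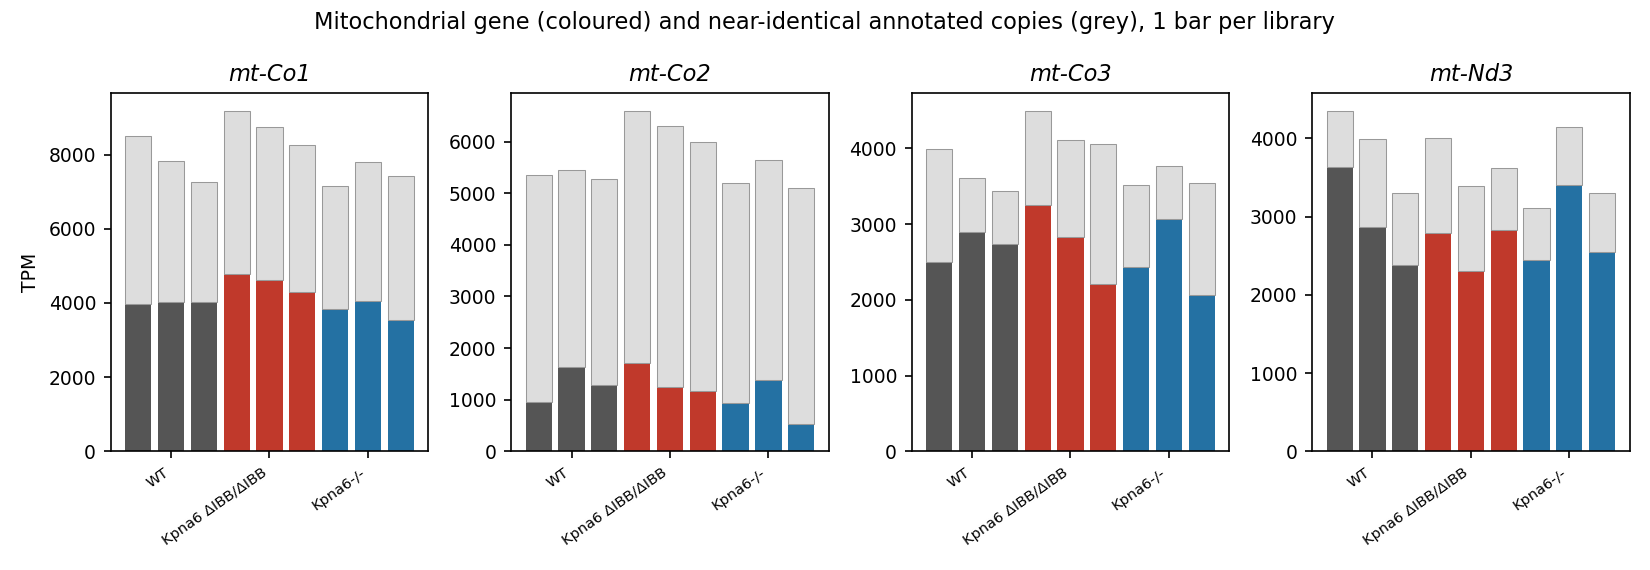
TPM of 4 mitochondrially encoded genes (coloured by genotype) with the TPM of their near-identical annotated copies stacked in grey, 1 bar per library and 3 bars per group. For mt-Co2 the coloured part varies from 522 to 1708 TPM while the full bars stay between 5092 and 6600 TPM.

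Testis-specific forms of complex IV subunits replace a form used elsewhere. Cox6b2 stands for Cox6b1, Cox7b2 for Cox7b and Cox8c for Cox8a. In TPM the testis form made up most of each pair in every library. Cox6b2 held 94.2%, 95.6% and 94.8% of the Cox6b pair in WT, 93.1%, 92.7% and 93.6% in Kpna6 ΔIBB/ΔIBB, and 94.1%, 94.4% and 94.3% in Kpna6-/- testes. Cox8c held 94.0%, 95.8% and 95.2% of the Cox8a pair in WT, 93.3%, 93.6% and 92.8% in Kpna6 ΔIBB/ΔIBB, and 93.8%, 94.3% and 94.2% in Kpna6-/- testes. For both pairs the Kpna6 ΔIBB/ΔIBB libraries lay below all libraries of both other groups. Cox7b2 held 93.2% to 94.1% of its pair in WT and 92.7% to 93.5% in Kpna6 ΔIBB/ΔIBB, ranges that overlap. An exact two-sided permutation test over 3 against 3 libraries cannot give less than P = 0.1, which both differences reached (adjusted P = 0.171 over 12 tests of such shares). These shares do not depend on the scaling between libraries.

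The sequences before the start sites are shown for both forms of the Cox6b pair and for 3 more genes whose values the results turn on, as RefSeq gives them on GRCm38.p6, 250 bases each from 5′ to 3′. Capitals mark the core of the ETS motif (CCGGAAG), which GABP binds, and the shorter core of the cAMP response element (TGACG), on either strand. The full cAMP response element (TGACGTCA) contains the shorter one, and neither it nor the NRF1 core (GCGC, A, any base, GCGC) occurs in these 5 genes. A motif that runs past the start site is shown up to it.
Cox6b2 (chr7:4753095-4753344, minus strand): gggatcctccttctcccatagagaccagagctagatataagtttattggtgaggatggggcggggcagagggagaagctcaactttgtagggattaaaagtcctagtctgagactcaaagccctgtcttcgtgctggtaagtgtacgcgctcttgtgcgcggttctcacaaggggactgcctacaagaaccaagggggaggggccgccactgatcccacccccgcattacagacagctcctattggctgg
Cox6b1 (chr7:30626115-30626364, minus strand): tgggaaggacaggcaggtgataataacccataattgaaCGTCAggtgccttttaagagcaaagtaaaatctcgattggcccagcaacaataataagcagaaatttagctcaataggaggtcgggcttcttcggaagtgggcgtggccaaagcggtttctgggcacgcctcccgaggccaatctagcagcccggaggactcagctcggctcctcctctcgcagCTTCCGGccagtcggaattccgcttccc
Cox7b2 (chr5:71548206-71548455, minus strand): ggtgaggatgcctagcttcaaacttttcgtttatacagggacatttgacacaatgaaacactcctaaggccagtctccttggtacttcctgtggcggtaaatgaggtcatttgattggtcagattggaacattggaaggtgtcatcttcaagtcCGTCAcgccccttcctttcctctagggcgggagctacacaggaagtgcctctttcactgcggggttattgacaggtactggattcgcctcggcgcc
Cox8a (chr19:7217617-7217866, minus strand): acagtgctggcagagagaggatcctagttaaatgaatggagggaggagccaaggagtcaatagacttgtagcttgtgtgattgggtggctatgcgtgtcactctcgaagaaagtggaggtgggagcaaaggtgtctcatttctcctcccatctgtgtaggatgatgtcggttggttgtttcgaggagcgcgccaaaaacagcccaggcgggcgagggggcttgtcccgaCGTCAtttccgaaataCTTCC
Ndufa1 (chrX:37191239-37191488, minus strand): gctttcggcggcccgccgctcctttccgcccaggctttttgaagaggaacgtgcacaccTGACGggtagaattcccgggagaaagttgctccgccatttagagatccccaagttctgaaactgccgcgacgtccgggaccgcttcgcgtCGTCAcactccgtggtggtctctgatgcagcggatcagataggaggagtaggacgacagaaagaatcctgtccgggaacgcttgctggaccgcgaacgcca

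Cox6b2 has none of the 4 motifs in its window, while its partner Cox6b1 has both an ETS core and the shorter core of the cAMP response element. The Cox7b pair differs the other way. There the testis form Cox7b2 has the shorter core, and Cox7b, whose sequence is not printed, has none of the 4 motifs. Windows of 300 bases, with 50 bases after the start site, were found for 64 nuclear genes of the set (69 windows) and searched on both strands. The ETS core occurred in 23.2% of these windows and in 8.86% of all 32851 windows of the genome. The NRF1 core occurred in 26.1% against 4.6%, the full cAMP response element in 5.8% against 1.79%, and its shorter core in 36.2% against 20.8%. A match is a stretch of letters and not a site shown to be bound.

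Cox6b2 had 214, 225 and 231 CPM in WT, 200, 196 and 214 in Kpna6 ΔIBB/ΔIBB and 223, 228 and 235 in Kpna6-/- testes. It was called lower in Kpna6 ΔIBB/ΔIBB against WT (-0.13 ± 0.05, adjusted P = 0.0466), with the highest Kpna6 ΔIBB/ΔIBB library level with the lowest WT library. The call was lost in 8 of 17 alternatives, with adjusted P-values from 0.0208 to 0.929, including those without WT replicate 2 (-0.13), WT replicate 3 (-0.11), Kpna6 ΔIBB/ΔIBB replicate 1 (-0.12) and Kpna6 ΔIBB/ΔIBB replicate 2 (-0.11). Cox6b1 rose, with 17.2, 13.8 and 16.0 CPM in WT and 19.0, 19.5 and 19.1 in Kpna6 ΔIBB/ΔIBB (0.30 ± 0.09, adjusted P = 0.0214). It missed the threshold without WT replicate 2 (0.20), WT replicate 3 (0.31), Kpna6 ΔIBB/ΔIBB replicate 1 (0.30) or Kpna6 ΔIBB/ΔIBB replicate 2 (0.29).

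Cox7b2 had 54.4, 55.6 and 53.8 CPM in WT and 44.7, 46.4 and 47.5 in Kpna6 ΔIBB/ΔIBB, without overlap (-0.24 ± 0.05, adjusted P = 0.00325). With limma on log2(TPM + 1) it missed the threshold (-0.111, adjusted P = 0.0581). Its partner Cox7b, which is X-linked, was low at 7.08, 5.37 and 6.92 CPM against 7.74, 6.35 and 6.51 (0.09 ± 0.14, adjusted P = 0.632). Cox8c had 247, 255 and 260 CPM in WT and 248, 256 and 250 in Kpna6 ΔIBB/ΔIBB, and no change was detected (-0.01 ± 0.04, adjusted P = 0.849). Its sign is set by the scaling, since limma on log2(TPM + 1) gave 0.11 (adjusted P = 0.0376). Cox8a was 21.4, 15.3 and 17.5 CPM in WT and 24.1, 23.6 and 26.1 in Kpna6 ΔIBB/ΔIBB (0.45 ± 0.11, adjusted P = 0.00784), and it was called under all 17 alternatives, with values from 0.33 to 0.59.

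Another complex IV subunit with tissue forms is Cox7a. Cox7a2, the form of most tissues, had, with Atp5mpl, the largest fall of all members in Kpna6 ΔIBB/ΔIBB. It had 192, 176 and 170 CPM in WT, 145, 134 and 138 in Kpna6 ΔIBB/ΔIBB and 166, 182 and 168 in Kpna6-/- testes (-0.36 ± 0.05, adjusted P = 0.000343). Cox7a1, the heart and muscle form, had the largest rise of all members, at 0.91, 1.15 and 1.53 CPM in WT, 2.14, 2.20 and 2.08 in Kpna6 ΔIBB/ΔIBB and 2.21, 1.59 and 2.22 in Kpna6-/- testes (0.85 ± 0.22, adjusted P = 0.0125). Its level is low, and its value ranged from 0.68 to 1.05 over the alternatives, all of which called it. In TPM it rose from 1.80% to 3.20% of the Cox7a1 and Cox7a2 sum in WT to 5.41% to 5.78% in Kpna6 ΔIBB/ΔIBB, with 3.28% to 4.87% in Kpna6-/- (exact permutation test, P = 0.1 for each pair of groups, the smallest possible). Of 10 markers of striated muscle, 5 could be tested and 1 was called higher. The summed level of the list was 13.5 to 14.5 TPM in WT, 17.1 to 21.5 in Kpna6 ΔIBB/ΔIBB and 13.8 to 14.5 in Kpna6-/-, and its part in the Cox7a1 result was not tested. Cox7a2l (0.02 ± 0.05) and Cox4i2 (-0.05 ± 0.21), a lung form at 1.35 to 1.61 CPM in WT, did not pass the test. Cox4i1, the main form of that subunit, had 205, 211 and 215 CPM in WT and 214, 213 and 217 in Kpna6 ΔIBB/ΔIBB (0.04 ± 0.04, adjusted P = 0.495). It was called higher with library size scaling (0.133, adjusted P = 0.0116). Both limma fits called Cox4i1 (0.157) and Cox7a2l (0.145 and 0.143) higher.

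**Figure D3:**
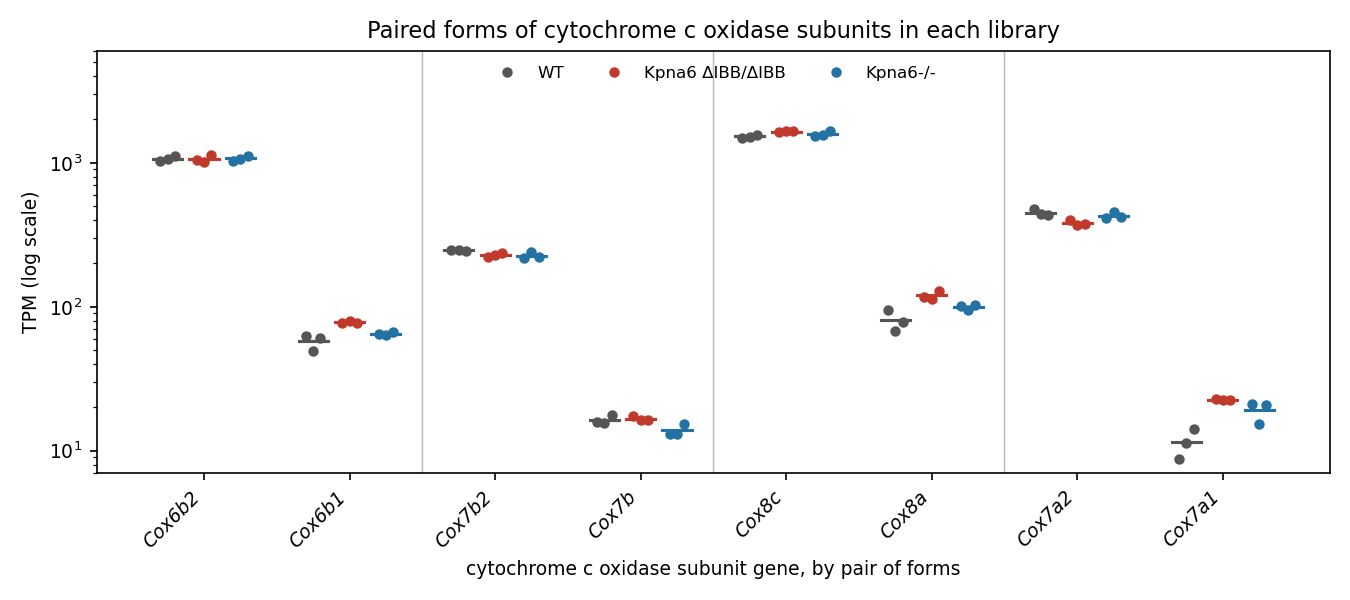
TPM on a log scale of 4 pairs of complex IV subunit forms, 1 point per library with lines at the means of 3 libraries. The testis form lies far above its partner in the 3 pairs on the left, and Cox6b1, Cox8a and Cox7a1 are higher in all 3 Kpna6 ΔIBB/ΔIBB libraries than in the 3 WT libraries.

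Over the nuclear members, rises and falls were about equal in number in Kpna6 ΔIBB/ΔIBB against WT. Of 79 tested, 13 were called higher (16.5%) and 12 lower (15.2%), and 54 did not pass. These shares are near those of all genes, 17.7% and 18.9%, and the median was 0.0009 (0.009 over all genes). With library size scaling 28 were called higher and 3 lower, and with limma on log2(TPM + 1) 29 and 2, while the medians of the members were 0.10 and 0.13. Of all 18797 genes, the same 2 settings called 5416 and 3925 higher and 2326 and 1622 lower. The split between higher and lower therefore depends on the scaling.

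Complex I, the largest complex, had 5 of 35 nuclear members called higher and 5 lower. Each is 14.3%, below the 17.7% and 18.9% of all genes. Both of the steepest rises were of X-linked genes. Ndufa1, an accessory subunit with a single membrane helix, had 15.8, 15.5 and 15.0 CPM in WT, 22.2, 21.3 and 22.6 in Kpna6 ΔIBB/ΔIBB and 19.9, 18.6 and 19.4 in Kpna6-/- testes, so that no 2 groups overlapped (0.52 ± 0.07, adjusted P = 0.0002). Ndufb11 had 10.5, 8.46 and 8.08 CPM in WT and 12.9, 11.7 and 13.7 in Kpna6 ΔIBB/ΔIBB (0.51 ± 0.11, adjusted P = 0.00543). Together with Cox7b, which was not called (0.09), these are the 3 X-linked members. The X chromosome is silenced in male meiosis, but any part of this in these values was not tested. The share of all X-linked genes called was not determined. Ndufa8 (0.24 ± 0.06, adjusted P = 0.0121), Ndufa10 (0.24 ± 0.07, adjusted P = 0.0186) and Ndufb10 (0.19 ± 0.05, adjusted P = 0.0123) were also called higher. The call of Ndufa10 was lost without WT replicate 2 (0.16), Kpna6 ΔIBB/ΔIBB replicate 1 (0.22) or Kpna6 ΔIBB/ΔIBB replicate 2 (0.22).

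The complex I genes called lower were Ndufs4, Ndufa7, Ndufb5, Ndufa12 and Ndufv2. Ndufs4, an accessory subunit whose loss in mice gives a model of Leigh syndrome, had 59.4, 60.7 and 55.7 CPM in WT and 50.5, 50.3 and 50.3 in Kpna6 ΔIBB/ΔIBB (-0.21 ± 0.05, adjusted P = 0.00678). Ndufa7 followed at 96.5, 93.4 and 92.2 against 82.1, 79.7 and 84.9 CPM (-0.19 ± 0.04, adjusted P = 0.00734). For these 2 genes the groups did not overlap and the call held whichever library was left out, but both missed the threshold with library size scaling (-0.115 and -0.0911) and with limma. Ndufb5 (-0.15 ± 0.05, adjusted P = 0.0355) lost its call without WT replicate 1 (-0.13), WT replicate 2 (-0.16), Kpna6 ΔIBB/ΔIBB replicate 1 (-0.12) or Kpna6 ΔIBB/ΔIBB replicate 2 (-0.15). The same held with library size scaling (-0.0538), both limma fits (-0.108 and -0.107) and the replicate block (-0.152).

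Complexes II and III have the fewest nuclear members. Of the 4 complex II genes Sdhd, which anchors the complex in the membrane, was called higher (0.22 ± 0.06, adjusted P = 0.0142), and the other 3 did not pass. This is 25%, against 17.7% of all genes called higher. In complex III none of the 8 nuclear members was called higher and 3 were called lower (37.5%, against 18.9% of all genes). These were Uqcrb (-0.16 ± 0.06, adjusted P = 0.0394), Uqcrfs1, the Rieske iron-sulfur protein (-0.15 ± 0.04, adjusted P = 0.0192), and Uqcrq (-0.14 ± 0.04, adjusted P = 0.0107). The call of Uqcrb was lost in 11 of 17 alternatives, including those without WT replicate 1 (-0.15), WT replicate 3 (-0.14), Kpna6 ΔIBB/ΔIBB replicate 1 (-0.16), Kpna6 ΔIBB/ΔIBB replicate 2 (-0.19) and Kpna6 ΔIBB/ΔIBB replicate 3 (-0.14), and that of Uqcrq without Kpna6 ΔIBB/ΔIBB replicate 2 (-0.129), with library size scaling (-0.042, adjusted P = 0.342) and with both limma fits (-0.0427). In the same comparison mt-Cytb, the partner of these proteins in complex III, rose.

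In complex IV, leaving aside the testis-specific forms, 5 of 15 nuclear members tested were called higher (33.3%, against 17.7% of all genes). Called lower were 2 (13.3%, against 18.9%). The members called higher are taken first. Besides Cox7a1, Cox8a and Cox6b1 these were Ndufa4, once counted as a complex I subunit, and Cox6a1, the form outside muscle. Ndufa4 had 11.7, 11.3 and 11.5 CPM in WT and 14.2, 14.2 and 15.4 in Kpna6 ΔIBB/ΔIBB (0.35 ± 0.08, adjusted P = 0.00607). Cox6a1 had 106, 105 and 111 CPM in WT and 123, 122 and 133 in Kpna6 ΔIBB/ΔIBB (0.24 ± 0.05, adjusted P = 0.00304). Neither gene's libraries overlapped between these groups. Besides Cox7a2, Cox7c was called lower, with 143, 134 and 133 CPM in WT and 118, 113 and 125 in Kpna6 ΔIBB/ΔIBB (-0.20 ± 0.05, adjusted P = 0.00839). Cox7c missed the threshold with library size scaling (-0.104) and with both limma fits (-0.0785 and -0.0784). Cox6c, with -0.11 ± 0.05, did not pass (adjusted P = 0.124) except without Kpna6 ΔIBB/ΔIBB replicate 3 (-0.158).

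In the ATP synthase, 2 of 17 nuclear members tested were called higher and 2 lower. Each is 11.8%, below the 17.7% and 18.9% of all genes. Atp5mpl had 99.6, 87.3 and 86.7 CPM in WT, 73.3, 69.5 and 69.6 in Kpna6 ΔIBB/ΔIBB and 98.3, 95.9 and 99.0 in Kpna6-/- testes (-0.36 ± 0.06, adjusted P = 0.000839), and it was called under all 17 alternatives. Atp5s, a coupling factor known as factor B, had 40.7, 40.4 and 37.1 CPM in WT and 33.5, 33.1 and 31.8 in Kpna6 ΔIBB/ΔIBB (-0.26 ± 0.06, adjusted P = 0.00488). The Atp5s call was lost with limma on log2(TPM + 1) (-0.131, adjusted P = 0.102) and on log2(TPM + 0.1) (-0.134, adjusted P = 0.105). The genes called higher were Atp5g3, one of 3 genes for the same ring subunit c (0.20 ± 0.06, adjusted P = 0.0244), and Atp5a1, which encodes the α subunit (0.11 ± 0.04, adjusted P = 0.0349). Atp5b, at 564, 554 and 572 CPM in WT and 563, 568 and 576 in Kpna6 ΔIBB/ΔIBB, showed no detectable change (0.02 ± 0.03, adjusted P = 0.683), nor did Atp5e (0.04 ± 0.05, adjusted P = 0.591). With library size scaling, which put the median of all genes at 0.11, Atp5b (0.116, adjusted P = 0.0115) and Atp5e (0.133, adjusted P = 0.045) were called higher. Over all complexes, 3 of 79 nuclear members differed by more than 0.5 on the log2 scale.

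**Figure D4:**
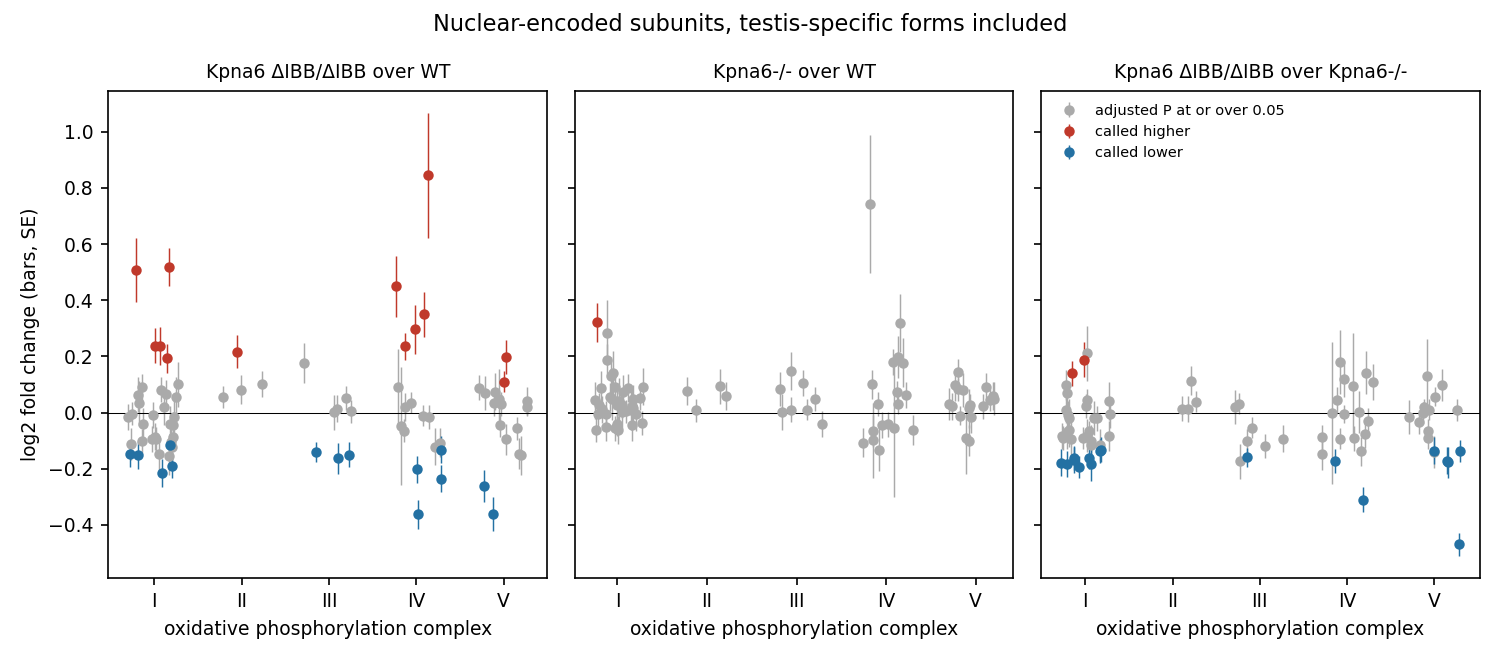
Log2 fold changes with SE of the nuclear members tested in each of 3 comparisons, by complex, with called members in colour and 3 testis-specific forms included in complex IV. Called members lie on both sides of 0 in Kpna6 ΔIBB/ΔIBB against WT, a single member is called in Kpna6-/- against WT, and most called members lie below 0 in Kpna6 ΔIBB/ΔIBB against Kpna6-/-.

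In Kpna6-/- against WT, a single subunit gene was called. Ndufa1 was higher (0.32 ± 0.07, adjusted P = 0.0391), which makes 1 of 79 nuclear members, or 1.27%, against 0.889% of all 18681 genes called higher and 0.712% called lower. The call was lost in 8 of 17 alternatives, with adjusted P-values between 0.0223 and 0.177, including those without WT replicate 2 (0.32), WT replicate 3 (0.31), Kpna6-/- replicate 1 (0.30), Kpna6-/- replicate 2 (0.35) and Kpna6-/- replicate 3 (0.32). None of the 13 mitochondrially encoded genes and none of the 3 testis-specific forms was called by edgeR, and 4 of the 13 and none of the 3 had an unadjusted P-value under 0.05. DESeq2 called 1 of the 13, mt-Cytb (0.13, adjusted P = 0.00806, against 0.0679 in edgeR). The values of Cox7a1 (0.74 ± 0.24, adjusted P = 0.169), Cox8a (0.32 ± 0.10, adjusted P = 0.166), Cox6a1 (0.18 ± 0.05, adjusted P = 0.0745) and Ndufb11 (0.29 ± 0.11, adjusted P = 0.27) did not pass. Cox8a passed without WT replicate 1 (0.46, adjusted P = 0.012), and Cox6a1 passed in DESeq2 (0.18, adjusted P = 0.0238). Both comparisons use the same WT libraries. The medians of the mitochondrially encoded and the nuclear members were -0.04 and 0.03, and that of all genes was 0.002.

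Compared directly under TMM scaling, more nuclear members were called lower than higher in Kpna6 ΔIBB/ΔIBB against Kpna6-/-. Of 79, 16 were called lower (20.3%) and 2 higher (2.53%), against 16.8% and 13.5% of all 18752 genes, and the median was -0.05 (0.005 over all genes). The share called lower was thus near that of all genes, and the share called higher was below it. Atp5mpl (-0.47 ± 0.04, adjusted P = 7.98e-06) and Cox7a2 (-0.31 ± 0.04, adjusted P = 0.000317) again had the largest falls and were called under all 17 alternatives. Of the others called lower, 9 belong to complex I, 4 to complex V and 1 to complex III. They include Ndufa13, also known as GRIM-19, with 105, 101 and 98.8 CPM in Kpna6 ΔIBB/ΔIBB and 114, 114 and 119 in Kpna6-/- testes (-0.20 ± 0.04, adjusted P = 0.00285), and Ndufb9 with 48.5, 49.5 and 49.2 against 54.9, 54.0 and 58.0 CPM (-0.18 ± 0.05, adjusted P = 0.01). For Ndufb4 (-0.18 ± 0.06, adjusted P = 0.0365) a near-identical gene held 41.6% of the summed counts. Its call was lost without any library but Kpna6 ΔIBB/ΔIBB replicate 3 (-0.143 to -0.191). Atp5g1 (-0.18) lost its call without replicate 1 or 2 of Kpna6 ΔIBB/ΔIBB or replicate 2 or 3 of Kpna6-/- (-0.134 to -0.191), Ndufa7 (-0.14) without the same libraries (-0.111 to -0.146), Atp5s (-0.17) without replicate 2 or 3 of either line (-0.146 to -0.174), and Ndufb5 (-0.18) without replicate 1 or 2 of Kpna6 ΔIBB/ΔIBB or replicate 3 of Kpna6-/- (-0.145 to -0.171).

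This direction also rests on the scaling. With library size scaling 20 nuclear members were called higher and 2 lower, and with limma on log2(TPM + 1) 25 and 2, against medians of all genes of 0.10 and 0.11. Of all 18752 genes, library size scaling called 4931 higher and 2016 lower, and the limma fit 3794 and 1330. The calls of Ndufa13 and Ndufb9 were lost under both of these settings, with -0.0949 and -0.0843 under library size scaling and -0.0503 and -0.0376 in the limma fit. Those of Ndufb4, Atp5g1, Ndufa7, Atp5s and Ndufb5 were also lost under both. The 2 genes called higher, Ndufa1 (0.19 ± 0.06, adjusted P = 0.0363) and Ndufa8 (0.14 ± 0.04, adjusted P = 0.032), lost the call without any one of the 6 libraries, with values from 0.164 to 0.216 and from 0.125 to 0.154. Of the mitochondrially encoded genes, mt-Cytb (0.18 ± 0.03, adjusted P = 0.00123), mt-Nd5 (0.16 ± 0.04, adjusted P = 0.0131) and mt-Nd4 (0.11 ± 0.03, adjusted P = 0.0198) were called higher in Kpna6 ΔIBB/ΔIBB and none lower. mt-Nd5 missed the threshold without Kpna6-/- replicate 3 (0.12). mt-Nd4 missed it without Kpna6 ΔIBB/ΔIBB replicate 1 (0.10), Kpna6-/- replicate 2 (0.12) or Kpna6-/- replicate 3 (0.09). Of the testis-specific forms Cox6b2 was called lower (-0.17 ± 0.04, adjusted P = 0.00862), a call lost with library size scaling (-0.0725, adjusted P = 0.186) and with both limma fits (-0.0162). Cox7b2 (-0.14 ± 0.05, adjusted P = 0.0635) and Cox8c (-0.09 ± 0.04, adjusted P = 0.0747) did not pass. In CPM all Kpna6 ΔIBB/ΔIBB libraries lay below all Kpna6-/- libraries in each of the 3 genes, but in TPM the groups overlapped in each. The share of all genes separated in this way was not determined.

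Genes that work with the subunits were described from lists, whose counts in Kpna6 ΔIBB/ΔIBB against WT stand beside 17.7% of all genes called higher and 18.9% lower. Of 8 electron carriers and subunits outside the naming rule, 1 was called higher and 1 lower in Kpna6 ΔIBB/ΔIBB against WT. These are the paired forms of cytochrome c. Cycs, the somatic form, went from 31.2 ± 2.6 to 39.9 ± 2.2 CPM (SD, n = 3; 0.36 ± 0.07, adjusted P = 0.00256), and Cyct, the testis form, from 54.1 ± 1.2 to 47.0 ± 0.8 CPM (-0.20 ± 0.05, adjusted P = 0.00771). Both were also called against Kpna6-/- (0.23 and -0.26). The list of 11 germ-cell forms of other mitochondrial proteins, with Cyct among them, had 6 called lower (54.5%, against 18.9% of all genes) and none higher, and its median was -0.15. Smcp, a protein of the sperm mitochondrial capsule, fell from 1460 ± 46 to 1044 ± 37 CPM (-0.48 ± 0.04), and Spata19, Gk2 and Pdha2 had -0.48, -0.29 and -0.28.

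Of 50 assembly factors 49 were tested, with 4 called higher (8.16%) and 7 lower (14.3%) in Kpna6 ΔIBB/ΔIBB against WT and a median of 0.03. Both shares are below those of all genes, 17.7% and 18.9%. Nubpl, an iron-sulfur protein needed for complex I (-0.54 ± 0.08), and Lyrm7 and Uqcc1, which serve complex III (-0.45 ± 0.05 and -0.41 ± 0.06), fell, while Cox15, which makes heme A for complex IV, rose (0.50 ± 0.10), as did Bcs1l, a complex III factor (0.41 ± 0.12). Of 18 genes of mitochondrial DNA maintenance and transcription, 1 was called higher (5.56%, against 17.7% of all genes) and 5 lower (27.8%, against 18.9%). Tfam, which packages mitochondrial DNA and starts its transcription, fell from 178 ± 10 to 138 ± 10 CPM (-0.36 ± 0.06, adjusted P = 0.000918), and Tfb1m, which methylates the small mitochondrial ribosomal RNA, from 47.7 ± 0.9 to 31.8 ± 2.8 CPM (-0.58 ± 0.07). Tfb1m was also the one gene of that list called in Kpna6-/- against WT (-0.23 ± 0.05, adjusted P = 0.0439). Mterf2 had -0.33 ± 0.11 and Twnk, the mitochondrial DNA helicase, 0.35 ± 0.09, both called in Kpna6 ΔIBB/ΔIBB against WT.

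Of 10 nuclear regulators of respiratory genes, Gabpb1, a subunit of the ETS factor GABP, fell (-0.51 ± 0.06, adjusted P = 0.000113) and Pprc1, a coactivator, rose (0.47 ± 0.07, adjusted P = 0.000576). Of 13 genes of the tricarboxylic acid cycle, 5 were called higher (38.5%, against 17.7% of all genes), led by Mdh2 (0.43 ± 0.06), Idh3g (0.40 ± 0.09) and Suclg2 (0.30 ± 0.08), and 2 lower (15.4%, against 18.9%), Fh1 (-0.25 ± 0.08) and Sucla2 (-0.21 ± 0.04). In Kpna6-/- against WT none of the genes on the lists of carriers, assembly factors, regulators, cycle enzymes and germ-cell forms was called by edgeR.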

How the data were processed

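Poly(A) RNA of whole testis was sequenced (NovaSeq, paired end) and, per the submitters' notes, assigned to mm10 transcripts with kallisto 0.45. The authors deposited 1 table per sample with estimated counts and TPM for 96626 transcripts. Of these, 95301 were assigned to 32035 genes by GENCODE M21 identifiers and summed. Estimated counts were rounded. Each comparison used the 6 libraries of its groups in edgeR 4.0.16 (filterByExpr, TMM, quasi-likelihood F-test, Benjamini-Hochberg over all genes tested, called at an adjusted P-value under 0.05). SE is the absolute log2 fold change over the root of F. Printed CPM were TMM-scaled over all 9 libraries. Fold changes of limma 3.58.1 are on the log2(TPM + pseudocount) scale and understate low genes.

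Alternatives were DESeq2 1.42.0, its size factors, other filters (5 counts in a share of 0.47 of the libraries, or none), library size, nuclear genes only, a replicate block, all 9 samples, limma, summed near-identical sequences (at least 95% identity over 100 bases and a share of 0.5 of the other transcript) and each library left out. The fit was tested on simulated data. There few genes were changed, with equal numbers raised and lowered, so it cannot show how the scaling acts where many genes differ. Named were all mitochondrially encoded genes, the Cox forms, the 10 nuclear genes highest in WT, and up to 8 called per direction and comparison. Up to 4 called genes of each list were named by size. Ndufb10, Uqcrfs1, Ndufv2, Ndufa12, Sdhd, Atp5g3, Atp5a1, Uqcc1 and Sucla2 were named after their values were seen. Members and lists were chosen with earlier results of these data known. The labels give separate animals only by replicate number, so P-values measure the spread between these samples. The strand setting and transcript release are not given in the sources used here.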

Additional observations from a re-analysis of the deposited data

How the results depend on the processing

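Each count was recomputed under 17 alternatives (16 for mitochondrially encoded genes, for which the fit on nuclear genes only gives no value). Nuclear members called higher in Kpna6 ΔIBB/ΔIBB against WT numbered 13, and 28, 29 and 28 with library size, limma on log2(TPM + 1) and limma on log2(TPM + 0.1). The same settings gave 3, 2 and 2 lower (12 in the reported fit), 8, 8 and 8 mitochondrially encoded genes higher (4) and 0 lower (1). The count of 1 mitochondrially encoded gene lower became 0 with DESeq2 and with all 9 samples in 1 fit and 2 with no filter. In Kpna6-/- against WT, 1 nuclear member higher became 2 with DESeq2 and no filter and 0 with both limma fits, and 0 mitochondrially encoded genes higher became 1 with DESeq2 and library size. In Kpna6 ΔIBB/ΔIBB against Kpna6-/-, 2 nuclear members higher became 0 with DESeq2, 1 with no filter and with all 9 samples, 20 with library size and 25 with each limma fit, 16 lower became 2 with these 3, and 3 mitochondrially encoded genes higher became 5 with DESeq2 and no filter and 9 with these 3. Over all genes, library size and the 2 limma fits called 5416, 3925 and 3908 higher in Kpna6 ΔIBB/ΔIBB against WT (3327 in the reported fit). They called 2326, 1622 and 1616 lower (3547). Against Kpna6-/- they called 4931, 3794 and 3788 higher (2523) and 2016, 1330 and 1319 lower (3150). Library size and limma move the median of all genes by about 0.1 (0.11 and 0.10 in Kpna6 ΔIBB/ΔIBB against WT), and the cause of the other shifts was not tested.

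Leaving out 1 library gave 8 to 12 nuclear members higher and 6 to 14 lower in Kpna6 ΔIBB/ΔIBB against WT, 4 to 6 mitochondrially encoded genes higher and 0 to 1 lower. In Kpna6-/- against WT it gave 0 to 2 nuclear members higher. In Kpna6 ΔIBB/ΔIBB against Kpna6-/- it gave 0 nuclear members higher, 7 to 17 lower and 1 to 6 mitochondrially encoded genes higher. Against WT the counts moved by over 1.5 times without Kpna6 ΔIBB/ΔIBB replicate 1 (8 higher, 7 lower) and replicate 2 (6 lower). Against Kpna6-/- the lower count fell to 9 and 7 without Kpna6 ΔIBB/ΔIBB replicates 1 and 2 and to 8 without Kpna6-/- replicate 2 or 3, and the mitochondrially encoded count was 6 without Kpna6 ΔIBB/ΔIBB replicate 3 or Kpna6-/- replicate 2 and 1 without Kpna6-/- replicate 3.

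Among named genes called in the reported fit or in the alternative, the direction changed in Kpna6 ΔIBB/ΔIBB against WT for Cox8c and mt-Co2. Cox8c had 0.11 with both limma fits, and mt-Co2 0.11 with near-identical sequences summed. In Kpna6 ΔIBB/ΔIBB against Kpna6-/- it changed for Cox4i1 (0.0943 with library size, 0.142 with both limma fits) and Ndufa7 (0.0111 with both limma fits). Small values that passed in neither fit changed sign in further genes. Examples against WT are mt-Nd1 (-0.0167, and 0.0814 with library size) and Ndufb9 (-0.0881, and 0.0372 with limma on log2(TPM + 1)). The deviations of same-numbered libraries correlated between -0.056 and 0.078, and those of other libraries between -0.14 and 0.063. No shared effect of the replicate number was seen, but correlations over all genes cannot show that the samples were unpaired. With the replicate block, 14 nuclear members were called higher and 10 lower in Kpna6 ΔIBB/ΔIBB against WT, with 5 and 2 mitochondrially encoded genes, 0 nuclear members in Kpna6-/- against WT, and 2 higher, 19 lower and 5 mitochondrially encoded genes higher in Kpna6 ΔIBB/ΔIBB against Kpna6-/-.

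With 3 libraries a group, precision is limited by the spread between them, and poly(A) selection and near-identical copies limit what the mitochondrially encoded counts measure.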
